A study of Mus musculus with 3 samples.

Results

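In 3 droplet libraries of single cells from mouse femoral fracture callus, a small group of cells carried RNA of at least 4 of 7 genes led by *Cyp1b1*, *Sfrp4*, *Plac8*, *Ccl7*, and *Fabp4*. The members were 283 of 16714 cells without a UMI of *Ptprc*, the gene of the leukocyte antigen CD45. A UMI is a molecular tag that marks 1 captured RNA molecule. Cells had 500 to 5000 genes, at most 10% mitochondrial UMIs, and at most 5% hemoglobin UMIs, and members were chosen by these counts alone: a cell was a member when it held a UMI of at least 4 of the 7 genes *Cyp1b1*, *Sfrp4*, *Plac8*, *Ccl7*, *Fabp4*, *Ly75*, and *Fam20a*. On day 7 after fracture 12 of 447 cells met this rule, or 2.68% (exact binomial 95% interval 1.39 to 4.64). All 12 held *Plac8*, which on that day was also seen in 41.7% of 60 cells with high *Acan* and *Cnmd*, genes of cartilage, and the part of free RNA in the day 7 share was not tested. On day 10 there were 167 of 6587, or 2.54% (2.17 to 2.94), and on day 14 there were 104 of 9680, or 1.07% (0.879 to 1.30). Every other cell with at least 10 UMIs of *Aspn* per 10000 served for comparison, 24 cells on day 7, 2123 on day 10, and 4146 on day 14. *Aspn* encodes asporin, a matrix proteoglycan of periosteal and fibrous cells, and these cells are called Aspn-high below.

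The animals were untreated C57BL/6 mice of both sexes with a broken femur, whose age is not given in the sources used here. Callus was freed of marrow and digested with collagenase, and live cells negative for CD45, the endothelial antigen CD31, and the erythroid antigen TER119 were sorted. Each day was 1 library, and the number of animals in it is not given in the sources used here, so day and library cannot be told apart and no test between conditions was possible. All intervals cover counting error only. On day 7, 6570 of the 7017 cells within the limits held a *Ptprc* UMI and were left out, and the 12 members there are given as levels without a ratio. Summed over members, the libraries held 188482, 2779642, and 1677731 UMIs on days 7, 10, and 14, and the median member had 15160, 16839, and 16316 UMIs against 17294.5, 15252, and 14235 in Aspn-high cells. All cells kept had medians of 6763, 17372, and 15838 UMIs, so the members' shares of the 3 days were not taken at equal depth. The libraries shared 29 to 42 cell barcodes with each other, and no member barcode was a member in a second library.

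The reticular stroma of bone marrow is a network of perivascular cells that feeds and anchors blood stem cells. It is known for the chemokine *Cxcl12*, for *Kitl* (stem cell factor), for the leptin receptor *Lepr*, and for genes of the fat lineage such as *Adipoq*. Callus stroma of the kind marked by *Aspn* and *Postn* instead lays down cartilage, bone, and fibrous matrix. Cyp1b1 is a cytochrome P450 enzyme that oxidizes steroids, retinoids, and aromatic hydrocarbons, and Sfrp4 is a secreted antagonist of Wnt signalling.

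The 7 genes of the rule chose the members, so their levels are a description. In GENCODE M21 (GRCm38) *Cyp1b1* lies at chr17:79701537-79715061 on the minus strand, *Sfrp4* at chr13:19623104-19632994 on the plus strand, and *Fabp4* at chr3:10204088-10208576 on the minus strand. Levels are summed UMIs of a gene per 1000000 summed UMIs of the group (CPM). *Cyp1b1* stood at 93.2 CPM (95% Poisson interval 82.2 to 105) in members on day 10 and at 109 (93.8 to 126) on day 14, against 5.54 and 8.17 in Aspn-high cells. *Sfrp4* stood at 115 and 111 CPM against 23.4 and 12.0. The fatty acid carrier *Fabp4* stood at 237 and 395 CPM against 19.1 and 32.1, and *Plac8*, a small cysteine-rich protein, at 210 and 159 against 23.6 and 11.4. *Ly75*, an endocytic receptor known from dendritic cells, stood at 54.3 and 29.2 CPM against 3.76 and 2.92, and *Fam20a*, a pseudokinase of the secretory pathway, at 73.4 and 73.3 against 11.9 and 14.99. *Ccl7*, a chemokine that draws monocytes, went from 223 CPM on day 10 to 106 on day 14, where 1 cell held 46.9% of its UMIs. *Cyp1b1* was seen in 73.1% of the day 10 members and 81.7% of the day 14 members, and in 0.389% and 0.677% of cells with high *Acan* and *Cnmd*, the cartilage genes aggrecan and chondromodulin, whose median depths were 19842.5 and 21574 UMIs. *Cyp1b1* and *Sfrp4* were seen together in some members only: 63 of 167 held both on day 10 and 39 of 104 on day 14. Of all *Cyp1b1* UMIs in the cells kept, members held 47.3% on day 10 and 22.5% on day 14.

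**Figure D1:**
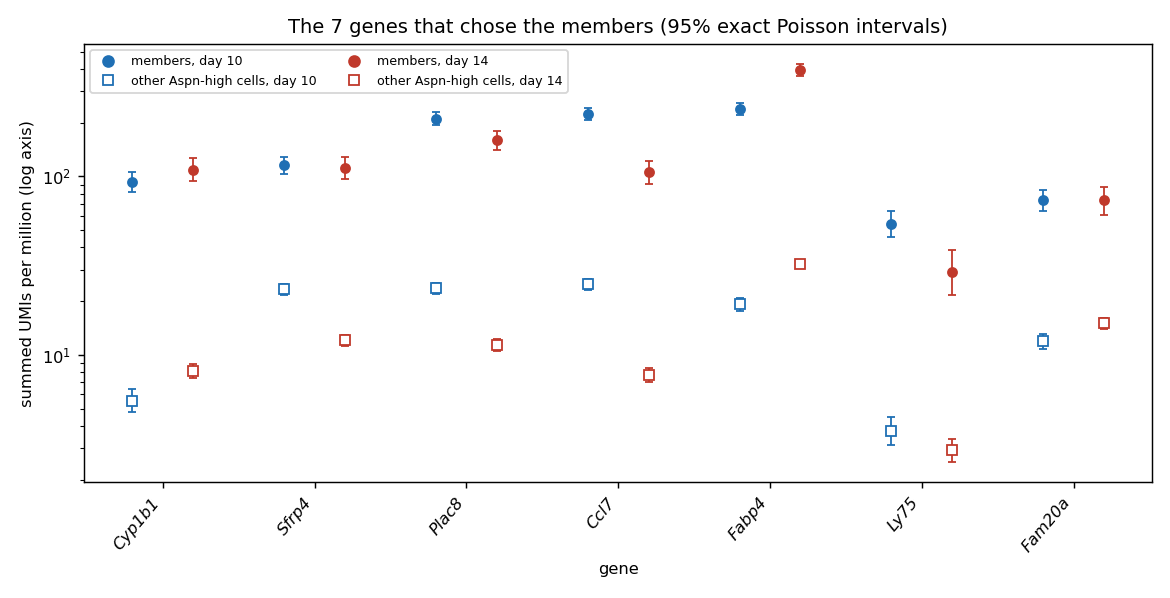
CPM (log axis) of the 7 genes that chose the members, in members (filled) and other Aspn-high cells (open) on day 10 and day 14, with 95% exact Poisson intervals. All 7 genes lie higher in members on both days, which the rule itself fixes.

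A gene was compared on a day when it reached 10 CPM in either group, and a ratio of at least 2-fold was the size used throughout. Day 10 had 8369 such genes, of which 5.78% were at least 2-fold higher and 4.86% at least 2-fold lower in members. For day 14 the shares were 5.03% and 4.16% of 8277 genes. Both days together gave 274 of 7973 genes higher on both (3.44%) and 216 lower on both (2.71%). The 274 include the 7 rule genes and the 216 include *Aspn*, all used to choose the groups. The median log2 ratio over all genes compared was 0.05 on day 10 and 0.02 on day 14. The comparison cells were picked for *Aspn*, so the ratio of *Aspn* itself (947 against 3750 CPM, then 1571 against 4482) follows from the choice. *Aspn* was still seen in 91.0% and 97.1% of members, and 51 and 45 members passed the *Aspn* cut themselves. In those 51 and 45 members alone the mean log2 ratio of both days was 1.97 for *Mmp13*, 1.91 for *Cxcl12*, 1.81 for *Csf1*, -1.84 for *Igf1*, -4.29 for *Tnmd*, and -1.42 for *Dcn*, against 2.44, 2.09, 2.25, -3.10, -5.27, and -2.11 in all members. The values moved further for *Mmp9* (5.65 in all members and 1.58 in these), *Mcpt8* (5.20 and 2.55), *Dio3* (3.74 and 2.29), and *Cxcl5* (4.96 and 3.77).

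The 250 bases before the start of *Cyp1b1* (RefSeq, GRCm38.p6, chr17:79715062-79715311, minus strand, 5′ to 3′) are shown because the gene names the group and is a textbook target of the aryl hydrocarbon receptor, which binds a core of GCGTG, which reads CACGC on the other strand. Capitals mark the only match, which begins 76 bases before the start.
Cyp1b1: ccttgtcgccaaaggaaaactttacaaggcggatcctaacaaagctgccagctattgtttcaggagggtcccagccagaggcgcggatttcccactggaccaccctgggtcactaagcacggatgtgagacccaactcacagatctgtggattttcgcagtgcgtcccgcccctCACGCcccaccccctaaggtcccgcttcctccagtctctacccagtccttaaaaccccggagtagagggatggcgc
The core is short, and 9250 of 32851 such windows (28.2%) hold it on either strand. *Cyp1a1*, another target of the receptor, was at 0 UMIs in members on every day, and so was *Ahrr*, the receptor's repressor. *Tiparp* stood at 50.01 CPM against 51.5 on day 10 and at 25.03 against 29.1 on day 14. The receptor gene *Ahr* stood at 9.35 CPM (26 UMIs) against 2.68 on day 10 and at 7.15 (12 UMIs) against 4.25 on day 14. Of the 15 genes of the aryl hydrocarbon and retinoid list, 8 reached 10 CPM in either group on each day and were compared. *Ahr*, below 10 CPM in both groups on both days, was not among them. Of the 8 compared, 0 were at least 2-fold higher, and only *Rbp4*, a retinol carrier, was at least 2-fold lower (99.3 against 663 CPM, then 165 against 969).

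Many marrow reticular genes were higher in members than in Aspn-high cells, and 4 genes of fat cells, *Adipoq* among them, were at 0 UMIs. Of the 15 genes, 7 of the 12 compared on both days were at least 2-fold higher on both and 0 lower on both, with median log2 ratios of 1.12 and 1.13. *Cxcl12* stood at 283 CPM (264 to 304) in members against 74.6 (71.7 to 77.6) on day 10, and at 529 (495 to 565) against 112 (109 to 114) on day 14. It was seen in 71.3% and 82.7% of members, in 40.0% and 43.6% of Aspn-high cells, and in 7.50% and 5.42% of the cartilage cells with high *Acan* and *Cnmd*. The 132 and 86 members without a UMI of the chemokine *Cxcl5* held *Cxcl12* at 151 and 317 CPM, below the level of all members. Cells of at least 5000 UMIs were also thinned to 5000 and the others left out. *Cxcl12* was then seen in 50.3% of 165 and 62.7% of 102 members and in 22.9% of 2048 and 28.5% of 3805 Aspn-high cells. *Csf1*, the growth factor of macrophages and osteoclast precursors, stood at 147 CPM against 33.0 on day 10 and at 122 against 24.0 on day 14. The adhesion molecule *Vcam1* was 2.80-fold and 2.56-fold higher, *Angpt1*, a ligand of the vessel receptor Tie2, 2.48-fold and 2.10-fold, and the transcription factor *Ebf3* 2.18-fold and 2.44-fold. *Kitl* stood at 42.5 CPM against 10.5 and at 26.2 against 11.5, and *Pdgfrb*, a receptor of mural and stromal cells, at 182 against 86.3 and 241 against 87.2. Both were higher still in non-member cells with high *Rgs5*, a pericyte gene (*Kitl* 81.0 and 115 CPM, *Pdgfrb* 482 and 454). The whole list summed to 1563 CPM in members and 1021 in Aspn-high cells on day 10, and to 2021 and 1148 on day 14. In the Rgs5-high cells it summed to 1967 and 1921 CPM. In cells with high *Abi3bp*, a matrix protein, and *Igf1*, a growth factor, it summed to 1723 and 1914 CPM. The members' sum was thus below both of these groups on day 10 and above both on day 14.

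The defining markers of marrow stroma were split. *Cxcl12* and *Kitl* were higher as given above. *Lepr* had 30 UMIs in 12.6% of the day 10 members (10.8 CPM against 3.51) and 12 UMIs in 11.5% of the day 14 members (7.15 against 3.90), and was seen in 3.86% and 3.69% of Aspn-high cells. *Adipoq*, *Plin1*, *Cd36*, and *Cfd*, all genes of fat cells, were at 0 UMIs in members on all days, which allows up to 1.08 CPM on day 10 and 1.79 on day 14. *Pparg*, the master regulator of fat cells, had 9 and 4 UMIs and was seen in 5.39% and 2.88% of members against 0.989% and 1.21% of Aspn-high cells, and *Cebpa* had 23 and 6 UMIs. *Hp*, haptoglobin, was lower in members on day 10 at 84.9 CPM against 185 and stood at 149 against 251 on day 14. *Ebf1*, *Foxc1*, and *Cdh11* of the same list stood at ratios of 1.08-fold to 1.39-fold. Of the 16 genes of the fat lineage 2 of the 7 compared on both days were at least 2-fold higher on both, the stress-responsive factor *Cebpb* (380 against 125 CPM and 262 against 92.3) and the lipase inhibitor *Angptl4* (113 against 53.9 and 137 against 59.5). With *Adipoq* at 0 and *Lepr* in few cells, the members are named here by the rule and not as marrow cells.

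Secreted signals were often higher in members. Of 19 chemokines, cytokines, and related genes, 9 of 13 compared on day 10 and 11 of 14 compared on day 14 were at least 2-fold higher and 0 were lower, with median log2 ratios of 1.51 and 2.20. *Cxcl5*, a chemokine for neutrophils, stood at 89.9 CPM (79.1 to 102) against 5.88 on day 10 and at 272 (248 to 299) against 4.33 on day 14. A single member held 29.6% and 29.98% of these UMIs, and without it the levels were 63.8 and 193 CPM. *Cxcl14* stood at 120 CPM against 20.6 and at 93.0 against 8.03, and the monocyte chemokine *Ccl2* at 167 against 19.7 and 69.7 against 8.46. *Cxcl16* and *Cx3cl1*, both membrane-bound chemokines, were 2.14-fold to 3.81-fold higher. *Lif*, a cytokine of the interleukin 6 family, stood at 25.2 against 5.48 CPM and 19.1 against 3.17, and *Il6* at 11.5 against 4.34 and 20.3 against 1.48. The interferon-induced chemokine *Cxcl9* was carried by few cells: on day 14, 1 member held 78.9% of its UMIs, and the log2 ratio was 2.00 with that cell and -0.24 without it. *Tnfsf11* (RANKL), the signal that drives osteoclast formation, stood at 64.8 CPM against 22.2 on day 10 and at 72.7 against 17.5 on day 14. Its decoy receptor *Tnfrsf11b* (osteoprotegerin) was the other way at 25.9 against 33.8 and 11.3 against 18.4, less than 2-fold on both days. *Ptgs2*, the inducible enzyme of prostaglandin synthesis, stood at 620 CPM against 341 on day 10 and 139 against 90.3 on day 14. The immediate early genes, which respond to stress and digestion within minutes, stood nearer to level: 0 of 10 reached 2-fold on either day, with median log2 ratios of 0.45 and 0.17.

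**Figure D2:**
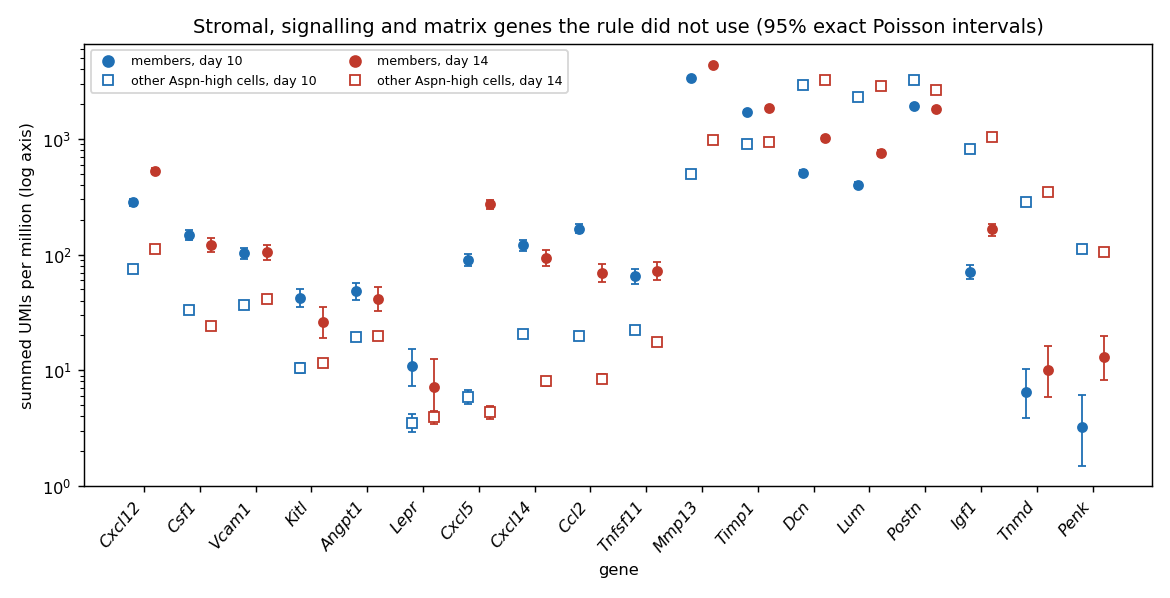
CPM (log axis) of 18 genes outside the rule in members (filled) and other Aspn-high cells (open) on day 10 and day 14, with 95% exact Poisson intervals. From *Cxcl12* to *Timp1* the members lie above, with overlapping intervals for *Lepr* on day 14, and from *Dcn* to *Penk* they lie below.

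Of 13 complement and acute phase genes, 4 of the 8 compared on both days were at least 2-fold higher on both. The list summed to 672 and 968 CPM in members and 357 and 484 in Aspn-high cells, and to 928 and 1244 in non-member cells with high *Rgs5*. *C2* stood at 28.1 against 11.3 CPM and 31.6 against 11.3, and factor B (*Cfb*) at 23.0 against 7.14 and 26.8 against 7.81. They also included *Serpina3g*, a serpin with near copies in the mouse genome that may share its reads, at 20.9 against 0.924 CPM and 28.0 against 0.648. Also higher, and named after their values were seen, were the immunoproteasome subunits *Psmb8* (83.8 against 17.0 CPM and 112 against 16.6) and *Psmb9* (24.5 against 4.93 and 40.5 against 5.78) and the nucleic acid sensor *Zbp1* (37.4 against 7.48 and 20.9 against 3.61). Non-member cells with high *Rgs5* held *Psmb8* at 177 and 110 CPM, *Psmb9* at 42.2 and 41.8, and *Zbp1* at 41.1 and 14.98.

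Among proteases the collagenase *Mmp13* had the largest count of those that were higher. It stood at 3345 CPM (3277 to 3413) in members against 499.6 (492 to 507) on day 10, and at 4345 (4246 to 4446) against 988 (980 to 996) on day 14, log2 ratios of 2.74 and 2.14. It was seen in 84.4% and 93.3% of members, and no member held more than 5.82% of its UMIs on either day. The 250 bases before its start (RefSeq, GRCm38.p6, chr9:7272264-7272513, plus strand, 5′ to 3′) are shown because this gene gave a large ratio at a high count, with the only AP-1 motif match, TGACTCA, which reads TGAGTCA on the other strand, in capitals 35 bases before the start.
Mmp13: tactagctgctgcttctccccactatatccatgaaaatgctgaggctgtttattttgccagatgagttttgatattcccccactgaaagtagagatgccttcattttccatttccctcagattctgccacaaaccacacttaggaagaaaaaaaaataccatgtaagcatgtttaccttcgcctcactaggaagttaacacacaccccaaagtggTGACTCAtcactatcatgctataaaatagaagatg
Of 32851 such windows 1466 (4.46%) hold this motif on either strand. The AP-1 genes *Fos* and *Jun* stood at ratios of 1.03-fold and 1.13-fold on day 10. Of 16 proteases and inhibitors, 4 of the 13 compared on both days were at least 2-fold higher on both (*Mmp9*, *Mmp13*, *Adamts2*, and *Adamts4*) and 0 lower, with median log2 ratios of 0.93 and 0.97. The aggrecanase *Adamts4* was 2.23-fold and 2.95-fold higher. *Timp1*, an inhibitor of these enzymes, stood just under the 2-fold size at 1715 against 903 and 1851 against 937, and the gelatinase *Mmp2* was 1.57-fold and 1.58-fold lower.

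By the smaller of their 2 daily ratios, the 15 genes highest in members included *Mmp9*, *Mcpt8*, *Serpina3g*, *Cxcl5*, *Cyp1b1*, *Ctla2a*, *Fabp4*, *Ms4a4d*, *Dio3*, *Ltc4s*, *Ly75*, *Slc9a3r1*, *Ccl7*, and *Plac8*, of which 5 are rule genes. The gelatinase *Mmp9* led the list, but 1 day 10 member held 621 of the 683 *Mmp9* UMIs (90.9%). Its log2 ratio was 6.50 on day 10 and 3.05 without that cell, and 4.79 on day 14 and 4.19 without the highest cell there. *Mcpt8*, a granule protease known from basophils, stood at 23.7 CPM against 0.893 on day 10 and at 15.5 against 0.307 on day 14, seen in 12.6% and 7.69% of members. Members held 52.8% and 31.0% of all its UMIs in the cells kept. *Ltc4s*, the enzyme that makes leukotriene C4, stood at 21.9 against 1.32 CPM and 14.3 against 1.30. *Dio3*, which inactivates thyroid hormone, stood at 17.3 against 1.11 and 10.1 against 0.887. *Ctla2a*, a cysteine protease inhibitor, stood at 23.4 against 1.82 and 59.6 against 2.97. *Ms4a4d* stood at 28.8 against 2.37 CPM and 27.4 against 2.18, and *Slc9a3r1* at 14.8 against 1.29 and 10.7 against 1.11. Non-member cells with high *Rgs5* held more of both than members, *Ms4a4d* at 38.7 and 31.3 CPM and *Slc9a3r1* at 19.9 and 14.5. The other genes named here that are not rule genes stood lower in those cells than in members.

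**Figure D3:**
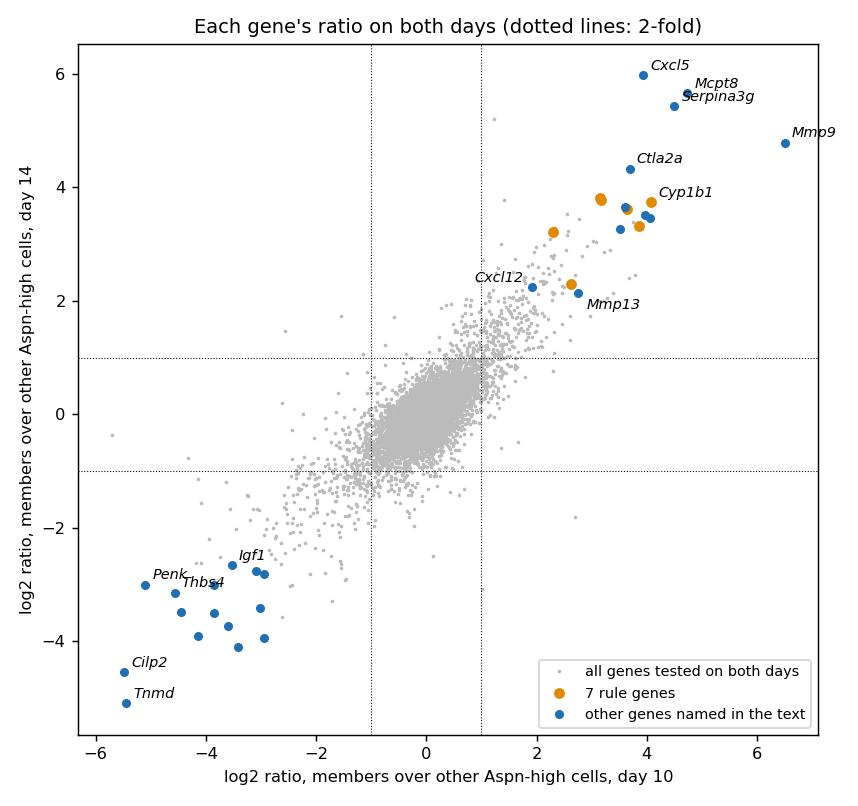
The log2 ratio of members over other Aspn-high cells on day 10 (horizontal) and day 14 (vertical) for the 7973 genes compared on both days, with dotted lines at 2-fold. Marked are the 7 rule genes, genes picked for lying at least 2-fold higher or lower on both days, and *Cxcl12* and *Mmp13*. They lie in the upper right and lower left corners, which the choice fixes for all but *Cxcl12* and *Mmp13*. Not every gene named in the text is marked. *Mmp9* lies farthest right at 6.50, and *Cilp2*, with 0 member UMIs, is drawn at its bound.

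Blood cell genes were otherwise sparse. On day 10 and day 14 the 14 macrophage and monocyte genes summed to 48.2 and 26.8 CPM in members and 15.8 and 26.8 in Aspn-high cells. Most of this was *Fcer1g*, a signalling chain of antibody receptors, at 36.0 against 3.57 CPM and 16.7 against 2.25, seen in 16.2% and 10.6% of members. *Tyrobp* and *Laptm5* had 1 UMI each on either day, and *Adgre1*, *C1qb*, *C1qc*, and *Ccr2* had 0. *Ms4a2*, *Cpa3*, and *Fcer1a*, genes of basophils and mast cells that were looked up after *Mcpt8* was seen, had 0 UMIs apart from 1 of *Ms4a2* on day 14. *H2-Ab1* stood at 16.9 against 3.42 CPM on day 10 with 1 UMI each of *H2-Aa* and *Cd74*. The lymphocyte genes summed to 0 and 2.98 CPM, the endothelial genes to 3.96 and 5.36, and the erythroid genes to 10.8 and 1.79. The 8 neutrophil genes summed to 19.4 and 41.7 CPM in members and 5.30 and 221 in Aspn-high cells. Of the osteoclast, Schwann cell, and muscle genes 1 of 5 each was compared on both days: *Des* (desmin) was 2.58-fold and 2.31-fold higher, and the osteoclast phosphatase *Acp5* stood at 5.76 against 20.3 CPM and 19.1 against 22.9. On day 7 the 8 neutrophil genes summed to 2881 CPM in members and 2112 in Aspn-high cells, and their part in the day 7 levels was not tested.

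Periosteal genes were mostly lower in members than in Aspn-high cells, and fibroblast genes were mixed. Of the 12 periosteal genes, 8 on day 10 and 6 on day 14 were at least 2-fold lower and 0 higher, with median log2 ratios of -1.48 and -1.03. These counts and medians include *Aspn*, whose lower level follows from the choice of the comparison cells. The part of that choice in the ratios of the other periosteal genes was not tested. Decorin (*Dcn*) stood at 507 CPM against 2951 on day 10 and at 1010 against 3217 on day 14, and lumican (*Lum*) at 401 against 2320 and 761 against 2878. Both are proteoglycans that space collagen fibrils, and with *Sema3c* and *Mfap5* they were the 4 of 10 fibroblast genes at least 2-fold lower on both days, while 4 of 11 were at least 2-fold higher on day 10 (*Ly6a*, *Ly6c1*, *Clec3b*, and *Thy1*) and 0 on day 14. *Clec3b* was seen in only 2 of 167 members on day 10 and in 0 of 104 on day 14, against 0.659% and 2.73% of Aspn-high cells. The fibroblast list's median log2 ratios were 0.52 and -0.59. *Ly6a* (Sca-1) stood at 330 against 109 CPM on day 10 and 302 against 201 on day 14. *Abi3bp*, a matrix protein, stood at 55.0 against 485 and 182 against 580, and *Thbs4*, a tendon thrombospondin, at 8.63 against 204 and 19.7 against 174. *Gli1*, a hedgehog target and stem cell marker, had 3 UMIs (1.08 CPM against 14.4, log2 ratio -3.74, interval -6.02 to -2.18) and 4 UMIs. Periostin (*Postn*) was below the 2-fold size at 1943 CPM against 3217 and 1822 against 2647, and *Prrx1* was level at 264 against 254 and 237 against 222. Among all cells kept, whatever their *Aspn*, those with 0 and 1 rule genes held less *Postn* than members. Their levels were 1050 and 1662 CPM on day 10 and 1072 and 1476 on day 14. Cells with 2 and 3 rule genes held more, at 2653 and 3110 CPM on day 10 and 1827 and 2142 on day 14.

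Of the IGF genes 6 of 10 were at least 2-fold lower and 1 higher on day 10, and 3 of 11 lower and 1 higher on day 14, with median log2 ratios of -1.08 and 0.14. *Igf1*, a growth factor, stood at 70.9 CPM (61.3 to 81.5) against 820 (810 to 829) on day 10 and at 165 (146 to 186) against 1045 (1036 to 1053) on day 14. It was seen in 16.8% and 32.7% of members and in 74.8% and 79.6% of Aspn-high cells, and 1 day 10 member held 28.9% of the members' *Igf1* UMIs. The binding proteins *Igfbp5* and *Igfbp6* were 2.41-fold to 5.27-fold lower, while *Igfbp4* was level at 578 against 583 CPM on day 10. *Pappa*, the protease that frees IGFs from *Igfbp4*, was 2.23-fold and 1.84-fold higher.

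Tendon and cartilage genes were lower too. Of the tendon genes 2 of the 3 compared on both days, *Tnmd* and *Scx*, were at least 2-fold lower on both. *Tnmd* (tenomodulin), a membrane protein of tendon, had 18 member UMIs on day 10 (6.48 CPM against 284) and 17 on day 14 (10.1 against 346). *Cilp2*, a cartilage matrix protein, had 0 member UMIs on both days against 48.5 and 41.7 CPM, and was at least 44.9-fold and 23.3-fold lower with 3 UMIs allowed for a count of 0. *Penk*, an opioid precursor, stood at 3.24 against 111 CPM and 13.1 against 105. Among the 15 genes lowest in members by the smaller daily ratio were also the Wnt receptor *Fzd9* (6.48 against 52.6 CPM and 2.98 against 31.7), the Wnt ligand *Wnt16* (1.44 against 20.8 and 1.79 against 14.5), *Angptl1* (11.2 against 86.4 and 10.1 against 156), *Fam180a* (8.63 against 73.3 and 12.5 against 84.9), and *Fxyd6*, a regulator of the sodium pump (9.35 against 164 and 12.5 against 188). *Barx2*, *Hsd11b2*, *Zfp185*, *Nrtn*, and *Il17d*, with few member UMIs, and *Thbs4* and *Igf1* completed those 15 with *Tnmd*, *Cilp2*, and *Penk*. Of the chondrocyte genes 7 of 8 on day 10 and 6 of 9 on day 14 were at least 2-fold lower. The cartilage collagen *Col2a1* stood at 2240 against 6409 CPM on day 10 and at 1748 against 2905 on day 14. It was seen in 100% and 97.1% of members, and 1 cell held 31.0% and 48.6% of the members' *Col2a1* UMIs. Of the osteoblast genes 1 of the 8 compared on both days, *Bglap*, was at least 2-fold lower on both. *Runx2*, the master regulator of bone formation, stood at 104 against 90.1 CPM, *Sp7* at 44.6 against 42.4, and *Col1a1* at 13670 against 17284 on day 10. Osteocalcin (*Bglap*) stood at 3.96 against 70.3 CPM on day 10 and 34.6 against 75.7 on day 14. Osteopontin (*Spp1*) was 2.67-fold higher on day 10 and 1.41-fold higher on day 14.

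Other signalling lists held genes in both directions. Of the Wnt antagonists and targets 2 of 8 were at least 2-fold lower on both days and 0 higher. *Sfrp2* was 2.47-fold higher on day 10 and 1.32-fold on day 14, and *Frzb*, a Wnt antagonist of cartilage, was 4.68-fold and 3.17-fold lower. In the BMP and TGF-beta list the BMP antagonist *Grem1* (56.5 against 22.6 CPM and 27.4 against 9.99) and *Bmp5* (47.5 against 20.2 and 37.0 against 12.8) were at least 2-fold higher on both days, *Chrdl1* was lower, and the list's median log2 ratios were 0.08 and 0.00. Of the 5 proliferation genes 3 were at least 2-fold higher on both days: *Mki67* stood at 44.3 against 20.4 CPM and 30.4 against 7.18 and was seen in 20.96% and 16.3% of members. On day 14, 1 member held 58.8% of the *Ube2c* UMIs and 43.1% of the *Top2a* UMIs, and without the highest cell their log2 ratios were 0.71 and 0.70.

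Within the members, 9 cells on day 10 and 8 on day 14 stood apart with *Rgs5* at the cut of 10 UMIs per 10000. *Rgs5* was at 7481 and 10247 CPM in them and at 8.38 and 7.05 in the remaining members. They held *Fabp4* (258 and 910 CPM), *Plac8* (393 and 266), and *Ccl7* (296 and 85.9), but little *Cyp1b1* (19.3 and 25.8), *Sfrp4* (6.44 and 8.59), *Cxcl12* (32.2 and 34.4), or *Mmp13* (122 and 335), and no *Cxcl5*. Rgs5-high cells outside the members, 67 on day 10 and 207 on day 14, held *Fabp4* at 321 and 395 CPM, *Plac8* at 195 and 114, and *Ccl7* at 122 and 26.3, with 3.52 and 3.18 CPM of *Cyp1b1*. The basement membrane collagen *Col4a1* was at 4179 and 6287 CPM in these 17 cells. In the other members it was at 133 and 128, against 90.5 and 72.2 in Aspn-high cells, so most of the ratio of *Col4a1* over all members (359 and 556 CPM) rests on them. *Col4a1*, *Col4a2*, and *Col18a1* were the 3 of 8 basement membrane genes at least 2-fold higher on both days. Of the pericyte and smooth muscle list 6 of 7 compared genes on day 10 and 8 of 9 on day 14 were at least 2-fold higher in all members, and 1 lower on each (*Cspg4*). *Mcam* of that list stood at 277 and 335 CPM in those 17 cells and at 11.8 and 7.05 in the other members. *Acta2*, smooth muscle actin, stood at 1604 and 1382 CPM in the members without those 17 cells against 659 and 492.

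A second subset was marked by *Cxcl5*, seen in 35 members on day 10 and 18 on day 14. Of these, 34 and all 18 also held *Cxcl12*, which was seen in 64.4% and 79.1% of the other members. *Vcam1* was seen in 28 of 35 and 18 of 18 of them against 61.4% and 56.98% of the other members. Their *Cxcl12* level was 813 CPM against 151 in members without *Cxcl5* on day 10, and 1673 against 317 on day 14. Of the 21 day 10 members with *Mcpt8* 4 held *Fcer1g* (19.0%), against 15.8% of those without, and 1 of 8 did so on day 14. *Ltc4s* was held by 7 of the 21 (33.3%), against 14.4% of those without *Mcpt8*. On day 14 it was held by 2 of 8 (25%) against 13.5%.

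**Figure D4:**
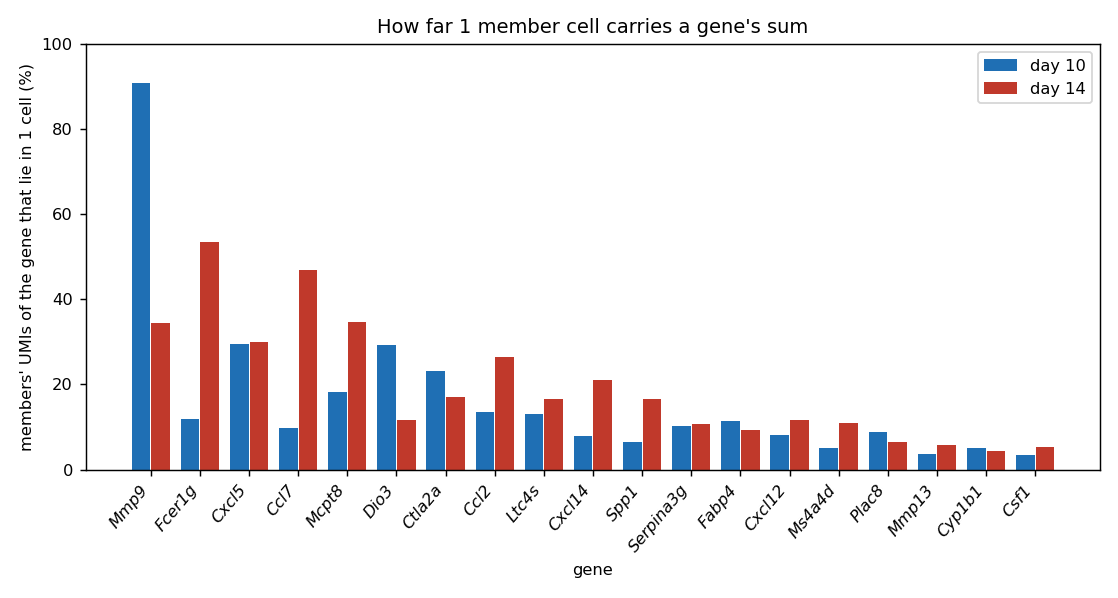
Share of the members' UMIs of each gene that lay in the 1 member with the most of them, on day 10 and day 14. *Mmp9* on day 10 reaches 90.9% and *Fcer1g* on day 14 reaches 53.6%, while *Mmp13*, *Cyp1b1*, and *Csf1* stay below 6% on both days.

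The number of rule genes varied among members. Of the day 10 members 97 held 4 rule genes, 49 held 5, 20 held 6, and 1 held all 7, and on day 14 these numbers were 74, 21, 8, and 1. Just outside the rule, with 3 of the genes, were 165 cells on day 10 and 205 on day 14. Over cells with 0 to 6 rule genes on day 10, *Cxcl12* stood at 17.9, 41.9, 107, 151, 250, 323, and 362 CPM, and *Mmp13* at 854, 841, 1236, 2343, 2430, 3898, and 6206, while the median depth stayed between 15844 and 18000.5 UMIs. *Igf1* stood at 221 CPM with 3 genes and 112 with 4 on day 10, and at 736 and 216 on day 14. *Tnmd* stood at 57.4 CPM with 3 genes and 8.70 with 4 on day 10, and at 80.6 and 12.1 on day 14, a larger step at the threshold than that of *Cxcl12* or *Mmp13*. On day 14 *Cxcl12* stood at 381, 506, 462, and 956 CPM with 3, 4, 5, and 6 genes and *Mmp13* at 2924, 4580, 3322, and 4757, so neither rose at every step there.

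**Figure D5:**
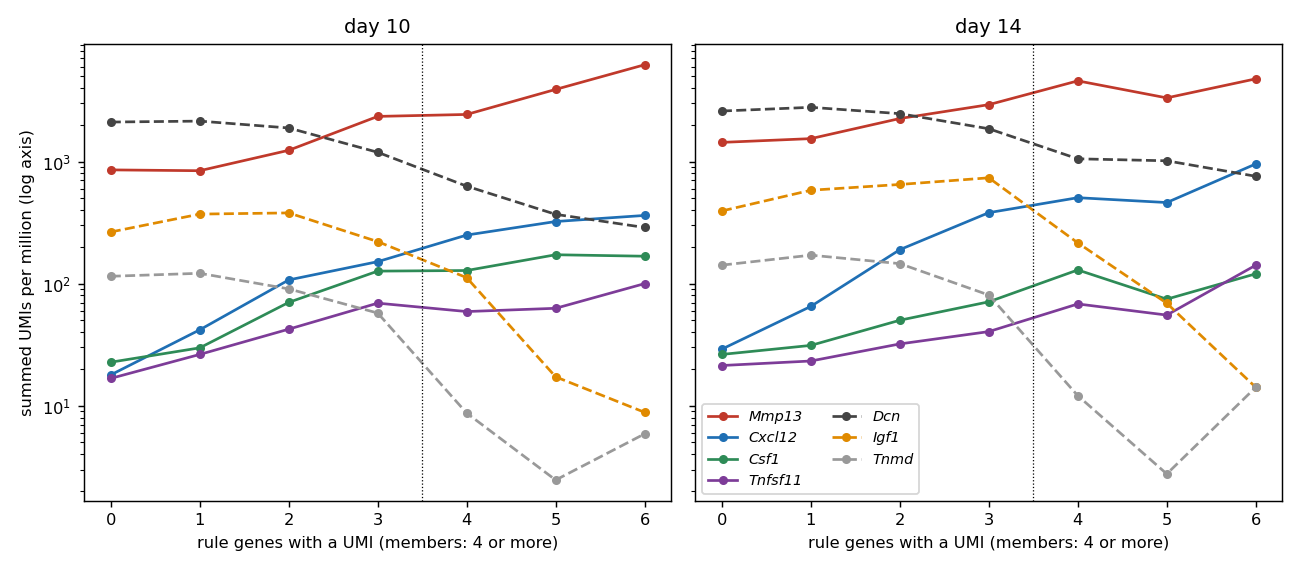
CPM (log axis) of 7 genes outside the rule by the number of rule genes a cell held, on day 10 and day 14, with the rule's threshold dotted and the cells with 7 genes (1 on each day) left out. *Cxcl12*, *Csf1*, *Tnfsf11*, and *Mmp13* lie higher and *Dcn*, *Igf1*, and *Tnmd* lower in cells with 4 or more than in cells with 0, and the last point of day 14 holds 8 cells.

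In the 30 main axes of variation of 2000 variable genes, with the 7 rule genes removed, 39.3% of the 20 nearest neighbors of day 10 members were members, who made up 2.54% of cells. On day 14 the share was 22.3% against 1.07%. On day 10, 161 of 167 members had a member among their neighbors and 71 had at least 10, and on day 14 84 of 104 had 1 or more and 13 had at least 10. At least 10 member neighbors were also found for 43 non-members on day 10 and 9 on day 14. Aspn-high cells made up 26.5% and 42.7% of the members' neighbors, near their 32.2% and 42.8% of cells. Rgs5-high cells made up 4.82% and 7.98% of these neighbors, above their 1.02% and 2.14% of cells.

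Between the libraries the members' *Cxcl5* was higher on day 14 (272 against 89.9 CPM) while that of Aspn-high cells was not (4.33 against 5.88). The share of members with *Cxcl5* was 20.96% on day 10 and 17.3% on day 14, so the day 14 level lay in 18 cells, 1 of which held 29.98% of it. *Ptgs2* was lower on day 14 in both, at 139 against 620 CPM in members and 90.3 against 341 in Aspn-high cells. The 12 day 7 members stood at 175 CPM for *Cyp1b1*, 944 for *Cxcl12*, 350 for *Cxcl5*, and 976 for *Mmp13*. Most of that *Cxcl12* lay in the 4 day 7 members with 4 rule genes, at 2491 CPM, against 168 in the 5 with 5.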

How the data were processed

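The deposited matrices hold whole UMI counts per gene and cell, which the authors made with Cell Ranger (3.0 per the submitters' processing notes, 3.1.0 in the matrix header) against mm10 without normalization or pooling. The 3 matrices hold 30888 cells and 32285 genes. Labels and methods name different versions of the 3′ kit. Gene positions came from GENCODE M21 and promoters from RefSeq. Python 3.11.15 with numpy 2.4.6, scipy 1.17.1, pandas 2.3.3, scanpy 1.11.5, scikit-learn 1.9.0, and matplotlib 3.10.9 was used.

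UMIs were summed over members and over other Aspn-high cells within each library and scaled to 1000000. Levels have exact Poisson, shares exact Clopper-Pearson, and ratios exact conditional binomial intervals at 95%. With 1 library a day there was no test. A count of 0 allows 3 UMIs. The ratio step was tested on simulated data. Named were the 7 rule genes, genes of 28 lists, and the 15 genes in each direction with the largest smaller log2 ratio of the 2 days, without numbered gene models, and 2 of these genes are not reported here. The members and lists were chosen with earlier results of these data known. Doublets were not removed. Scrublet's automatic threshold called 0, 1, and 1 cells, so it had not worked, and 8 of 167 and 3 of 104 members were among the highest 6% of its scores.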

Additional observations from a re-analysis of the deposited data

Results flagged for a closer look

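*Camp*, a neutrophil granule gene, was higher in members on day 10 and lower on day 14. Its log2 ratio to other Aspn-high cells was 2.70 on day 10 (12.6 CPM against 1.94, 35 UMIs in 15.6% of members) and -1.80 on day 14 (6.56 against 22.9, 11 UMIs). The difference between the days was not tested. In the Aspn-high cells *S100a8* and *S100a9*, more abundant neutrophil genes, stood at 0.739 and 0.523 CPM on day 10 and at 68.9 and 97.1 on day 14, and their part in the *Camp* ratio was not tested.

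Cells left out by the limits also met the rule. Among cells with more than 5000 genes and no *Ptprc* UMI there were 12 of 279 on day 7, 46 of 741 on day 10, and 45 of 945 on day 14. In the cells of day 10 and day 14 *Col2a1* stood at 8283 and 9283 CPM and *Cxcl12* at 134 and 150. Among day 7 cells with a *Ptprc* UMI, 7 of 6570 met the rule, with *Lyz2* at 1204 and *Tyrobp* at 719 CPM. On day 10 it was 0 of 6. On day 14 it was 3 of 173, or 1.73% (0.359 to 4.98), with *Lyz2* at 1823, *Tyrobp* at 338, and *Cxcl12* at 855 CPM.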

How the results depend on the processing

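The members' share of cells moved with the rule. With at least 3 rule genes it was 4.92%, 5.04%, and 3.19% on days 7, 10, and 14. With at least 5 it was 1.06% on day 10 and 0.310% on day 14, and with no upper limit on genes 1.40% on day 14. With cells of at least 5000 UMIs thinned to 5000 and the others left out it was 1.21%, 0.576%, and 0.191%, which left 6, 36, and 17 members. The 274 genes higher on both days became 168 with no upper limit on genes, 526 against all other *Ptprc*-negative cells, 763 without the 10 CPM filter, and 181 with the highest member left out for each gene. The 216 lower genes became 81 with at least 3 rule genes, 99 with no upper limit, 352 against all other cells, and 461 without the filter. The median log2 ratio of the marrow reticular list, 1.13 as the mean of both days, became 0.86 with no upper limit, 0.78 with thinned cells, and 1.39 against all other cells. The share of neighbors that were members became 47.4% on day 10 with at least 3 rule genes, 23.6% and 8.50% on days 10 and 14 with at least 5, and 10.3% and 10.9% with thinned cells. *Rgs5* changed direction, from a mean log2 ratio of 2.22 to -2.96 with thinned cells and -3.95 without the Rgs5-high members, the latter by construction, since Rgs5-high cells stayed in the comparison group. Of 652 values of 51 genes under 15 alternatives, 646 kept their sign, while 231 lay outside the counting interval of the reported value or reversed. *Mmp9* went from 5.65 to 2.67 with at least 5 rule genes and to 2.01 with thinned cells. Leaving out Rgs5-high members, the highest member of each gene, and the highest 6% of Scrublet scores were alternatives chosen after seeing the data. The planned removal of called doublets was not run, since the automatic threshold called almost none. No paired analysis was possible because the labelled groups, the 3 days, have 1 library each and share only the number 1, and no result comes from a test. Ratios were taken within each library.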
